A study of Homo sapiens with 9 samples.

Results

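The mitochondrial chromosome carries 37 genes, and all of them were followed in a human lymphoma line before and after growth in mouse femur. Members were every gene annotated on the mitochondrial chromosome, with symbols that begin with MT-. They are 37 of 58243 gene identifiers in the count files: 13 coding genes, 2 ribosomal RNA (rRNA) genes and 22 transfer RNA (tRNA) genes. The heavy-strand transcript carries 28 of them (12 coding, both rRNA and 14 tRNA genes). The light-strand transcript carries the other 9, which are MT-ND6 and 8 tRNA genes.

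The study sequenced RNA of DOHH2, an established line of B-cell lymphoma, grown from a follicular lymphoma that had transformed, in 9 bulk libraries of 3 groups with 3 libraries each. The culture group held cultured DOHH2 cells taken when the mice were grafted (D0). The femur groups held cells sorted on human CD20 from femurs of RAGγc mice, an immunodeficient strain, that carried a DOHH2 graft for 19 days (D19) or 40 days (D40). All groups share the 1 cell line, and the labels name no altered gene. The femur cells alone went through bone digestion, bead depletion and sorting, so growth in the femur and this handling cannot be told apart. The age of the mice, and whether femurs of several mice were pooled, are not stated in the sources used. By the dates in the sample titles, the 3 libraries labelled D40 were taken 11, 26 and 39 days after the culture library of their sampling period. The dates of replicates 1 and 2 therefore go against the D40 label. Counts of calls are given with and without both, and values are given for each library.

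Total counts ran from 21071239 to 29456271 per library. The title dates put the 3 libraries of each group in 3 sampling periods, months apart. The labels name neither the culture nor the animals behind a library, so the p-values cover the spread among these samplings, part of which may be technical. The B-cell marker list, with MS4A1 and CD79A, summed to 3266 to 4121 counts in a library scaled to 1000000 (CPM) in culture, 2572 to 2805 CPM at D19 and 2806 to 3032 CPM at D40. None of its 6 genes was at 0 in all libraries. The stromal, endothelial, erythroid and myeloid lists summed to at most 7.60 CPM in any library, with 12 of their 23 genes at 0 in all 9. The stromal list was higher in every femur library, at 1.16 to 1.44 CPM in culture, 4.97 to 7.54 CPM at D19 and 4.34 to 5.29 CPM at D40. The T-cell list summed to 20.5 to 27.5 CPM in culture and 6.24 to 17.8 CPM in the femur, with CD2 at 0. All lists are of human genes, while host cells in a femur sample would be mouse cells. The low sums therefore do not measure cells of the host. The part of these markers in the results was not tested.

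Mitochondrial DNA is a small circular genome that is read from both strands as long transcripts. The tRNA genes lie between most of the others, and cutting them out at both ends releases the rRNAs and most messenger RNAs. Most of the messenger RNAs then receive a short poly(A) tail. The 13 proteins are core subunits of the respiratory chain and of ATP synthase, and all other proteins of the organelle come from nuclear genes. In diffuse large B-cell lymphoma a subgroup with high expression of respiratory chain genes is known.

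The genes lie so close together that their borders bear on how reads could be counted. MT-ATP8 and MT-ATP6, subunits of ATP synthase, share 46 bases. The stretch around that overlap is shown here from the GENCODE 29 transcripts (GRCh38, plus strand, chrM:8507-8592), with the shared bases in capitals.
MT-ATP8 and MT-ATP6 junction: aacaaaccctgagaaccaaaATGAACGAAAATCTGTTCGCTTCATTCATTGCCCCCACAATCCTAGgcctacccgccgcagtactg
MT-ND4L and MT-ND4 share 7 bases, and MT-ATP6 and MT-CO3 share 1. Many tRNA genes, which are 59 to 75 bases long, abut a neighbour. The pairs MT-TI with MT-TQ and MT-TC with MT-TY overlap slightly, while gaps of up to 31 bases part others. Among genes over 300 exonic bases long that are wholly covered by exons of the opposite strand, 421 of 429 (98.1%) had no count in any library. The same held for 296 of 361 genes covered on their own strand (82.0%) and for 48.3% of genes without overlap. The counting settings are not stated. From these shares the counting was read as taking no account of strand and leaving out most reads that overlap 2 genes. Read so, a count for MT-ND6 or for a light-strand tRNA can hold reads from either strand, and the comparison of strands is limited by this.

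The coding genes were the class that rose. Their summed share of all counts was 5.46%, 5.00% and 4.03% in the culture libraries, 7.23%, 8.01% and 6.79% at D19, and 7.58%, 7.10% and 7.74% at D40. Every femur library lay above every culture library. In bulk RNA, a change of RNA per cell and a change in the mix of cells cannot be told apart. In a share of counts, more mitochondrial RNA and less RNA of other genes cannot be told apart either. The mean went from 4.83% ± 0.726 in culture to 7.34% ± 0.622 at D19 and 7.47% ± 0.332 at D40 (SD, n = 3). The difference between femur and culture was 2.58 percentage points with all libraries and 2.61 without D40 replicates 1 and 2. Within each sampling period the femur share exceeded that of the culture library of the same period, by factors of 1.32, 1.60 and 1.68 at D19 and of 1.39, 1.42 and 1.92 at D40.

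The other RNA classes did not separate by group. The rRNA share was 0.599%, 0.791% and 0.778% in culture, 0.762%, 0.641% and 0.737% at D19, and 0.902%, 0.710% and 0.751% at D40, with culture replicate 1 the lowest. The tRNA share was 0.0175%, 0.0136% and 0.0199% in culture, 0.0168%, 0.0142% and 0.0199% at D19, and 0.0136%, 0.0158% and 0.0155% at D40. In both classes the groups overlapped. Within periods the ratio of femur to culture ran from 0.811 to 1.51 for rRNA and from 0.779 to 1.17 for tRNA. No test was made on these sums.

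**Figure D1:**
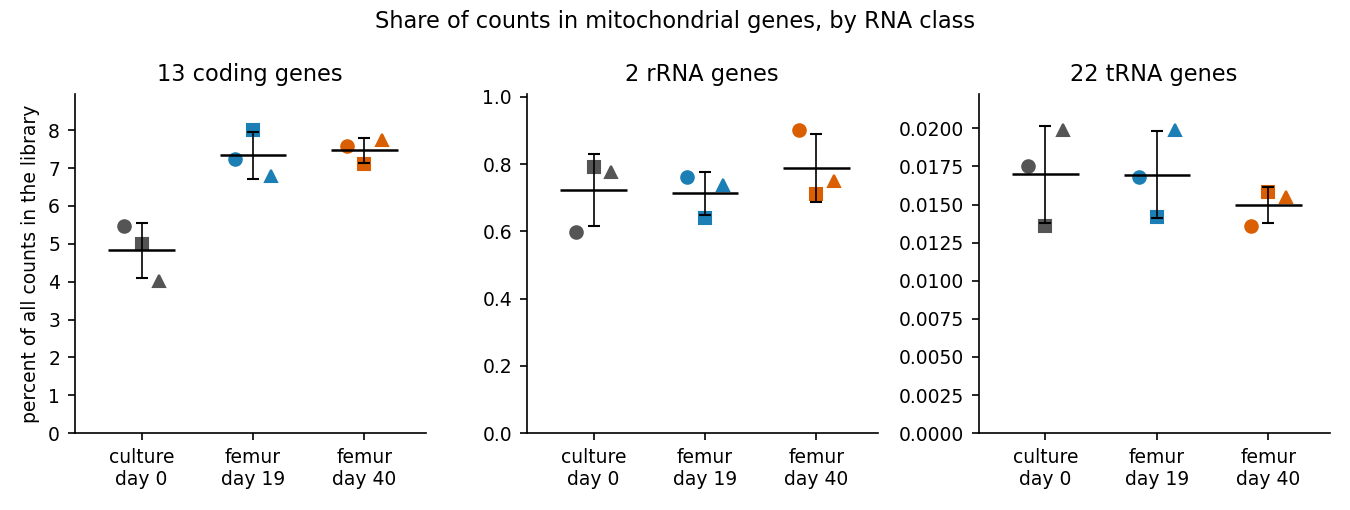
Share of all counts (percent, each panel with its own axis from 0) in the 13 coding, 2 rRNA and 22 tRNA genes, for culture D0, femur D19 and femur D40. Points are libraries (circle, square and triangle for replicates 1, 2 and 3), lines are means and bars are SD (n = 3). The coding share of the femur libraries (6.79% to 8.01%) lies above that of the culture libraries (4.03% to 5.46%), while the rRNA and tRNA shares overlap.

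Single genes were tested with edgeR's quasi-likelihood F-test over 15163 genes, with Benjamini-Hochberg adjustment and an adjusted p under 0.05 as the threshold. All 37 mitochondrial genes passed the filter on low counts. Overlap, where it is stated for a gene, is between the culture libraries and the 6 femur libraries unless other groups are named. At D19, 9 rose and 3 fell against culture, where 26.3% of all tested genes rose and 26.5% fell. The 9 were coding genes and the 3 were tRNA genes (MT-TS1, MT-TK and MT-TP). At D40, 11 rose and 6 fell, where 23.3% of all genes rose and 23.3% fell, and again the 11 were coding genes and the 6 were tRNA genes (MT-TV, MT-TQ, MT-TS1, MT-TD, MT-TT and MT-TP). Without D40 replicates 1 and 2, which leaves 1 library in that group, 5 rose and 3 fell. At D19 only 1 fall was called without culture replicate 1, culture replicate 3, D19 replicate 1 or D19 replicate 2, each left out alone. At D40 the falls numbered 2 without D40 replicate 1 and 3 without culture replicate 3 or D40 replicate 3. By total library size alone 4155 of all genes rose and 2650 fell at D40, against 3527 and 3538 with TMM.

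Both femur groups were set against the same 3 culture libraries, so the combined contrast of femur against culture carries the detail that follows. There 12 mitochondrial genes rose and 6 fell, where 27.8% of all genes rose and 28.2% fell. The 12 were all coding genes except MT-ND3, and the 6 were tRNA genes. The median log2 fold change was 0.51 over the 13 coding genes (range 0.18 to 0.93) and -0.24 over the 22 tRNA genes, beside 0.01 over all genes tested. Without D40 replicates 1 and 2, 9 rose and 5 fell. The count of falls depended on single culture libraries. It was 10 without culture replicate 2 and 3 without culture replicate 3.

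MT-CYB, the cytochrome b subunit of complex III (chrM:14747-15887), was the coding gene with the largest rise in both femur groups. Its level was 2902, 2743 and 1977 CPM in culture, 4516, 5815 and 4678 CPM at D19, and 4468, 4239 and 5258 CPM at D40 (CPM are scaled by TMM throughout). All 6 femur libraries lay above all 3 culture libraries. Means were 2541 ± 495 CPM in culture, 5003 ± 708 at D19 and 4655 ± 535 at D40 (SD, n = 3). The log2 fold change was 0.93 for femur against culture (SE 0.13, edgeR adjusted p = 9.13e-05), a factor of 1.90. It was 0.98 at D19 (adjusted p = 0.000159) and 0.87 at D40 (adjusted p = 0.000512), or 1.04 (adjusted p = 0.00421) with D40 replicate 3 as the only D40 library. The call held in all 16 alternatives, with an adjusted p of at most 0.000352. Per kb of gene length MT-CYB moved from the eleventh place among the 13 coding genes in culture to the eighth in both femur groups.

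The 3 catalytic-core subunits of cytochrome c oxidase, complex IV, are MT-CO1, MT-CO2 and MT-CO3. MT-CO1 was at 11338, 9659 and 9100.3 CPM in culture, 15197, 15200.0 and 13968 CPM at D19, and 14292, 14642 and 16374 CPM at D40. The groups did not overlap and the log2 fold change was 0.57 (SE 0.09, edgeR adjusted p = 0.000267). MT-CO3 was at 6699, 7932 and 5880.4 CPM in culture and 8572 to 10667 CPM in the femur, also without overlap (0.53, adjusted p = 0.00094). MT-CO2 stood at 8165, 9151 and 4911 CPM in culture, 9567, 10580 and 8705 CPM at D19, and 10719, 10269 and 10217 CPM at D40. Culture replicate 2 lay within the femur range and culture replicate 3 far below it. The MT-CO2 change of 0.43 passed the test (adjusted p = 0.0323), but not in 6 of 16 alternatives. It was not called without culture replicate 3, D19 replicate 1, D19 replicate 2, D40 replicate 1 or D40 replicate 2, and without both early D40 libraries the adjusted p was 0.104.

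The subunits of ATP synthase rose by similar sizes. MT-ATP6 was at 5181, 4865 and 2813 CPM in culture and 5681 to 7233 CPM in the femur, without overlap (log2 fold change 0.59, edgeR adjusted p = 0.00813). MT-ATP8 was at 1864, 1595 and 815 CPM in culture and 1834 to 2471 CPM in the femur, where D19 replicate 3 lay just below culture replicate 1. Its change was 0.61 (adjusted p = 0.0209), and 0.57 (adjusted p = 0.0715) without D40 replicates 1 and 2. The ratio between these overlapping genes was stable: 29 to 36.1 MT-ATP8 counts per 100 MT-ATP6 counts over all libraries. Culture replicate 3 had the lowest level of both.

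The 7 subunits of complex I, NADH dehydrogenase, gave changes from 0.18 to 0.52. MT-ND4 was at 7956, 7728 and 5949 CPM in culture and 9083 to 11637 CPM in the femur (log2 fold change 0.51, edgeR adjusted p = 0.00236). MT-ND4L was at 1213, 1244 and 885 CPM in culture and 1418 to 1887 CPM in the femur (0.52, adjusted p = 0.00251). MT-ND5 was at 3433, 2274 and 2218 CPM in culture and 3552 to 4036 CPM in the femur (0.51, adjusted p = 0.0041). None of these 3 overlapped between culture and femur, and their calls held in all 16 alternatives. MT-ND1 was at 2128 to 2400.1 CPM in culture and 2511 to 3496 CPM in the femur (0.35, adjusted p = 0.00682). MT-ND2 was at 2476 to 3496 CPM in culture and 3565 to 4268 CPM in the femur (0.33, adjusted p = 0.0226). Both were free of overlap, but MT-ND2 was not called without culture replicate 3, without D19 replicate 2, or without both early D40 libraries.

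MT-ND3 was the coding gene that did not pass the test. It was at 886, 1320 and 555 CPM in culture, 985, 1094 and 933 CPM at D19, and 1064, 1025 and 1138 CPM at D40. The culture libraries spanned a wider range than all femur libraries, with culture replicate 2 the highest of the 9 and culture replicate 3 the lowest. The log2 fold change was 0.18 (SE 0.19, edgeR adjusted p = 0.451). Without culture replicate 2 it was 0.52 (adjusted p = 0.00629).

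**Figure D2:**
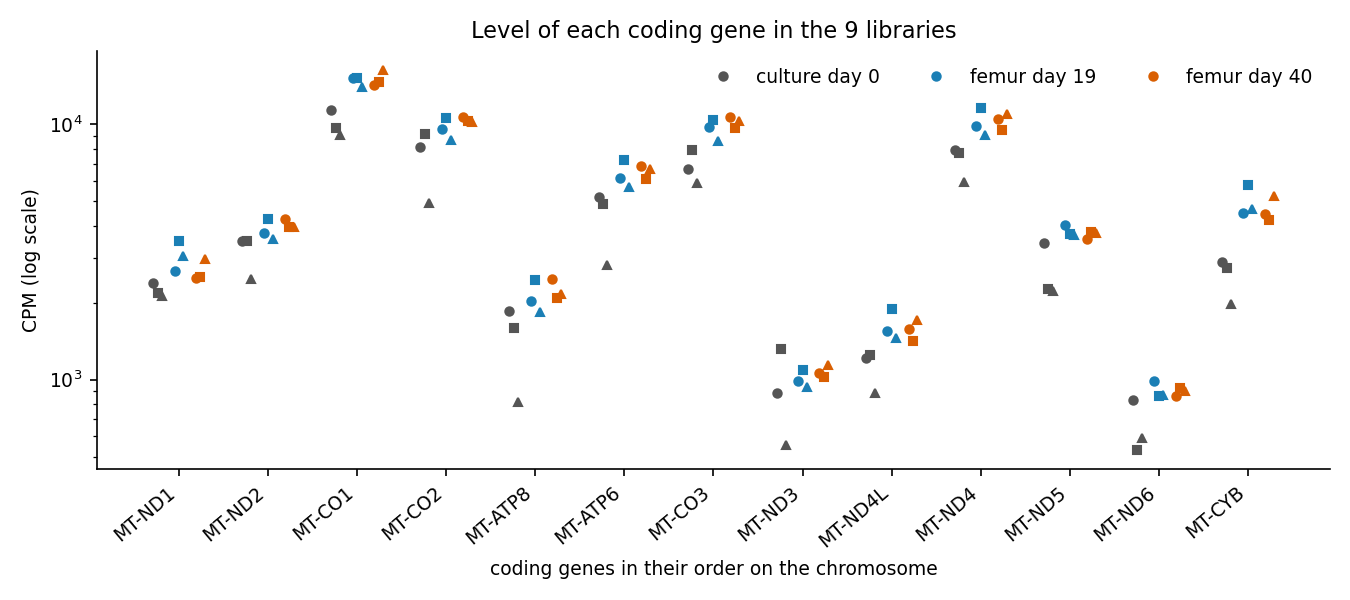
Level in CPM (log axis) of the 13 coding genes, in chromosome order, in the 9 libraries. Colours are groups and circles, squares and triangles are replicates 1, 2 and 3. The femur libraries of MT-CYB (4239 to 5815 CPM) lie above its culture libraries (1977 to 2902 CPM), while MT-ND3 overlaps. Culture replicate 3 is the lowest library for 12 of the 13 genes.

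Per kb of gene length the order of the coding genes was much alike in the 3 groups. MT-CO2 led with 10832 ± 3244 CPM per kb in culture, 14060.2 ± 1372 at D19 and 15207 ± 403 at D40 (SD, n = 3). MT-CO3 followed with 8721 ± 1317, 12233 ± 1191 and 13015 ± 643 CPM per kb. MT-ATP8, MT-CO1, MT-ATP6, MT-ND4 and MT-ND4L came next, in this order by the mean of every group. In D40 replicate 3 alone MT-CO1 (10619 CPM per kb) stood above MT-ATP8 (10459), and the other places were those of the D40 means. MT-ND5, with 1458 ± 379, 2102 ± 109 and 2047 ± 75.2 CPM per kb, and MT-ND6, with 1244 ± 305, 1730.2 ± 135 and 1711 ± 65.9, came last in every group. Of the 12 pairs of neighbours in this order, 9 differed by less than the larger SD in culture, such as MT-ATP8 (6882 ± 2633), MT-CO1 (6506 ± 755) and MT-ATP6 (6294 ± 1888). At D19 that held for 3 pairs (MT-ATP8 and MT-CO1, MT-CO1 and MT-ATP6, MT-ND1 and MT-ND3), and at D40 for 2 (MT-CO1 and MT-ATP6, MT-CYB and MT-ND2). MT-ND2, MT-ND3, MT-ND1 and MT-CYB held places 8 to 11 and changed places between groups. The genes that overlap, MT-ATP8 most of all for its 207 bases, would under the same reading lose the reads over the shared bases, so their levels per kb may be low estimates. Reads shared with nuclear copies, described below, may also lower the levels of MT-ATP6 and MT-ND2. The effect of either on the order was not tested.

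Position along the heavy-strand transcript went only loosely with the size of the change. Across the 12 heavy-strand coding genes the log2 fold change and the start position had a Pearson correlation of 0.55 and a Spearman correlation of 0.31. With gene length the correlations were 0.21 and -0.04. These are descriptions across genes of the same libraries, and MT-CYB is both the last gene and the one with the largest change.

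The only coding gene of the light-strand transcript, MT-ND6 (chrM:14149-14673, minus strand), encodes a subunit of complex I. It was at 834, 533 and 592 CPM in culture, 990.0, 864 and 871 CPM at D19, and 862, 931 and 901 CPM at D40. All femur libraries lay above all culture libraries, though culture replicate 1 came close. The log2 fold change was 0.47 (SE 0.12, edgeR adjusted p = 0.00493), within the range of the heavy-strand coding genes. Per 100 counts of the 12 heavy-strand coding genes there were 1.5, 0.983 and 1.49 MT-ND6 counts in culture, 1.41, 1.11 and 1.34 at D19, and 1.18, 1.35 and 1.19 at D40. The groups overlapped, and the difference of the log2 ratio per kb was -0.05 (exact permutation test over 84 splits of 6 against 3 libraries, two-sided, p = 0.857, where the smallest possible p is 0.0238). Without D40 replicates 1 and 2 the difference was also -0.05 (exact permutation test, p = 0.914), where p cannot go below 0.0571. MT-ND6 counts stayed between 23.3 and 26.7 per 100 counts of its neighbour MT-ND5 in all 9 libraries. With the library kit not stated, it is not known whether MT-ND6 RNA was captured like the heavy-strand messenger RNAs.

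The rRNAs of the mitochondrial ribosome gave no call. MT-RNR2, the large-subunit rRNA (chrM:1671-3229), was at 5507, 7531 and 6663 CPM in culture, 6270.1, 5385 and 5924 CPM at D19, and 7241, 5940 and 5970 CPM at D40. The groups overlapped (log2 fold change -0.10, SE 0.11, edgeR adjusted p = 0.436). MT-RNR1, the small-subunit rRNA (chrM:648-1601), was at 681, 1130 and 1104 CPM in culture, 1228, 907 and 1250 CPM at D19, and 1541, 1069 and 1450 CPM at D40, also with overlap. Its change was 0.35 (adjusted p = 0.0955), and it was called in 4 of 16 alternatives, among them total library size as scaling. The rRNAs shifted against each other: there were 8.09, 6.67 and 6.04 MT-RNR2 counts per MT-RNR1 count in culture, 5.11, 5.94 and 4.74 at D19, and 4.70, 5.56 and 4.12 at D40. All femur libraries were below all culture libraries in this ratio, which was not tested. Because the library kit is not stated, it is not known how far rRNA was selected against in each library. The rRNA counts may depend on that.

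To ask which genes moved against the heavy-strand messenger RNA, the same test was run with the summed counts of the 12 heavy-strand coding genes as library size. In that fit 1 mitochondrial gene rose and 21 fell for femur against culture, where 8% of all genes rose and 59.1% fell. The gene that rose was MT-CYB, with a relative log2 fold change of 0.40 (SE 0.13, edgeR adjusted p = 0.00413). It is itself 1 of the 12 genes of the scale. There were 5.23, 5.06 and 4.98 MT-CYB counts per 100 heavy-strand coding counts in culture, 6.44, 7.48 and 7.18 at D19, and 6.13, 6.13 and 6.96 at D40, without overlap. The call held in all 13 alternatives, with adjusted p-values from 0.00291 to 0.0222. Among the other coding genes, only MT-ND3 was called (-0.32, adjusted p = 0.0308), and this call was lost in 9 of 13 alternatives, among them without culture replicate 2. MT-ND2 was not called (-0.20, adjusted p = 0.165). Its share of coding counts was nevertheless lower in every femur library, at 6.20%, 6.39% and 6.14% in culture and 5.19% to 5.78% in the femur. That share was not tested. MT-ND6 was at -0.07 (adjusted p = 0.673).

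MT-RNR2 fell against the heavy-strand messenger RNA by 0.66 on the log2 scale (SE 0.12, edgeR adjusted p = 2.21e-07), a call that held in all 13 alternatives. The SEs of this fit were much alike, with 0.13 for MT-CYB and 0.14 for MT-RNR1. The counts per 100 heavy-strand coding counts varied unequally in culture: 13.5 ± 3.45 for MT-RNR2, 5.09 ± 0.126 for MT-CYB and 2.03 ± 0.778 for MT-RNR1 (SD, n = 3). The p-values of this fit may therefore not follow the spread of each single gene among libraries. There were 9.92, 13.9 and 16.8 MT-RNR2 counts per 100 heavy-strand coding counts in culture, 8.94, 6.93 and 9.09 at D19, and 9.93, 8.58 and 7.90 at D40. Culture replicate 1 lay at the upper end of the femur libraries and the other culture libraries lay above them. The library kit is not stated, so rRNA and messenger RNA may have been captured unequally, which was not tested. MT-RNR1 was at -0.23 (adjusted p = 0.126). Of the 22 tRNA genes 19 fell in this fit, where 59.1% of all genes fell. The 21 falls among all 37 mitochondrial genes were near that share. The tRNA falls were 11 of 14 on the heavy-strand transcript and 8 of 8 on the light-strand transcript. The median relative log2 change was -0.78 in each of these tRNA groups. The exceptions were MT-TF, MT-TH and MT-TS2. On this scale a fall marks a gene that rose less than the heavy-strand coding genes or fell. The count of falls was 18 without the early D40 libraries and 11 without culture replicate 3.

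**Figure D3:**
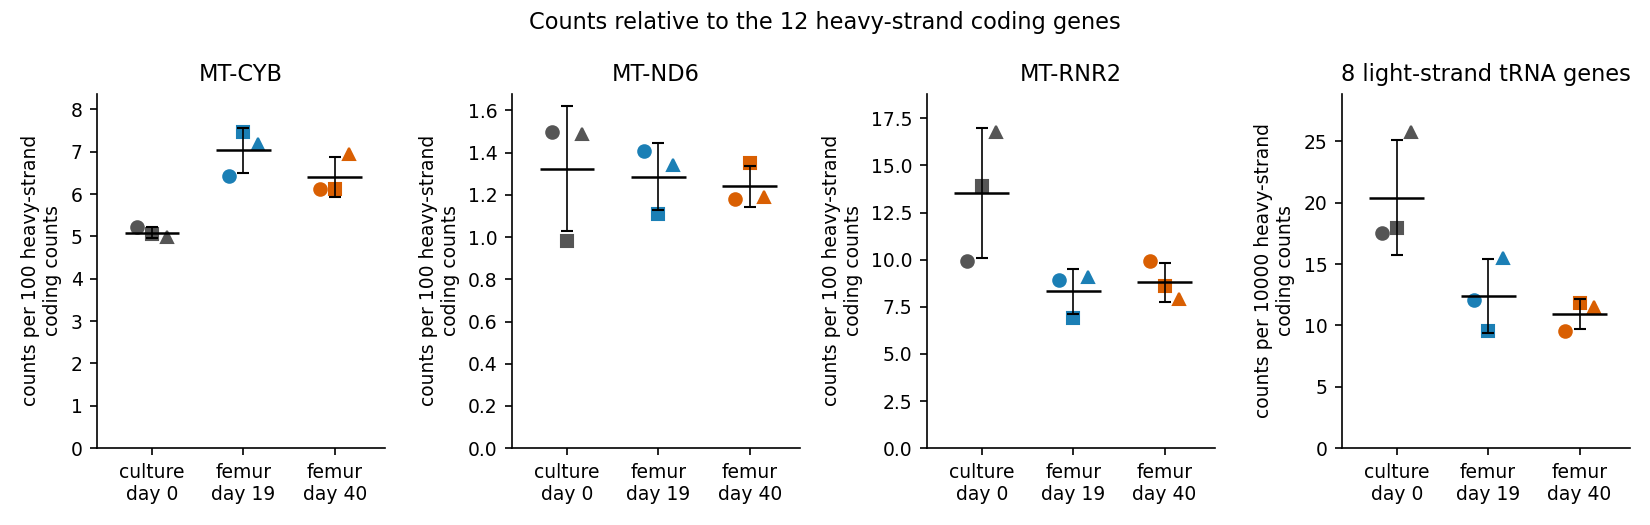
Counts of MT-CYB, MT-ND6 and MT-RNR2 per 100, and of the 8 light-strand tRNA genes per 10000, counts of the 12 heavy-strand coding genes (axes from 0), for culture D0, femur D19 and femur D40. Points are libraries (circle, square and triangle for replicates 1, 2 and 3), lines are means and bars are SD (n = 3). MT-CYB is higher and the light-strand tRNAs are lower in all femur libraries, while MT-ND6 and MT-RNR2 overlap.

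The tRNA genes were counted far less than the rest, from 2996 to 5136 counts per library for all 22 together. These tRNAs carry amino acids to the mitochondrial ribosome, and each pairs with codons through its anticodon. How the libraries were selected by RNA size is not given in the sources used here, so counts for genes this short may hold little mature tRNA. Under the reading of the counting given above, most reads that reach into a neighbouring gene would also be left out. The tRNA counts may therefore not follow tRNA levels. The 6 that fell in the femur are shown from the GENCODE 29 transcripts (GRCh38) with the anticodon in capitals, each written in the direction of its RNA. They are followed by MT-TH, MT-TS2 and MT-TL2, a run of 3 adjoining genes with no call, for contrast. MT-TS1 (chrM:7446-7514) and MT-TP (chrM:15956-16023) lie on the minus strand. The others, on the plus strand, are MT-TD (chrM:7518-7585), MT-TK (chrM:8295-8364), MT-TV (chrM:1602-1670), MT-TT (chrM:15888-15953), MT-TH (chrM:12138-12206), MT-TS2 (chrM:12207-12265) and MT-TL2 (chrM:12266-12336).
MT-TD: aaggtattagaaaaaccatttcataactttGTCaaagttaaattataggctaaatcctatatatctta
MT-TS1: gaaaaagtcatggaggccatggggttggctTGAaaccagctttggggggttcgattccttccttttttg
MT-TK: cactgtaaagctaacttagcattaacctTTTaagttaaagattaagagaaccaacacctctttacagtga
MT-TV: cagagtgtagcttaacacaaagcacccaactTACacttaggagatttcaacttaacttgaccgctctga
MT-TT: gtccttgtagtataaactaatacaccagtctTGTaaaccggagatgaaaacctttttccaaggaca
MT-TP: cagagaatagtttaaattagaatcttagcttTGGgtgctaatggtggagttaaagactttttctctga
MT-TH: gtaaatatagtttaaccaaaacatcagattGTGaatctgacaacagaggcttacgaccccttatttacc
MT-TS2: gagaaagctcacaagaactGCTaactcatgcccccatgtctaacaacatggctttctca
MT-TL2: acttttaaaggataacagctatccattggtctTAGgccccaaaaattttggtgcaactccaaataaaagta

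MT-TP, for proline, had the most counts of the 6, between 632 and 1082 per library. It was at 35.0, 44.4 and 41.9 CPM in culture, 32.8, 29.4 and 27.2 CPM at D19, and 28.4, 33.8 and 32.6 CPM at D40. All femur libraries lay below all culture libraries, by a narrow margin for culture replicate 1. The log2 fold change was -0.40 (SE 0.09, edgeR adjusted p = 0.00258), and the call held in all 16 alternatives. MT-TT, for threonine, lies next to MT-TP and had 30 to 76 counts per library. It was at 2.89, 3.46 and 2.87 CPM in culture, 1.71, 1.68 and 2.58 CPM at D19, and 1.63, 2.31 and 1.23 CPM at D40, again without overlap (-0.72, SE 0.22, adjusted p = 0.0149). Its call also held in all 16 alternatives, with an adjusted p of up to 0.0499.

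MT-TS1 and MT-TD, for serine and aspartate, lie between MT-CO1 and MT-CO2, which rose. MT-TD had 50, 15 and 55 counts in culture, 18, 12 and 34 at D19, and 10, 17 and 6 at D40. Culture replicate 2 lay inside the femur range. The log2 fold change of MT-TD, -1.43 (SE 0.39, edgeR adjusted p = 0.00781), was the largest fall of the 37 and held in all 16 alternatives. MT-TS1 had 32, 21 and 46 counts in culture, 11, 16 and 19 at D19, and 23, 21 and 7 at D40. In CPM its femur libraries (0.287 to 0.833) were all below its culture libraries (0.956 to 1.78), with a change of -1.08 (adjusted p = 0.0118). Without culture replicate 3 the adjusted p of MT-TS1 was 0.0715.

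MT-TV, for valine, lies between the rRNA genes and had 55 to 213 counts per library. It was at 5.13, 6.19 and 8.26 CPM in culture, 3.25, 2.61 and 7.44 CPM at D19, and 2.25, 3.92 and 2.25 CPM at D40. D19 replicate 3 alone overlapped with culture. The log2 fold change was -0.88 (SE 0.30, edgeR adjusted p = 0.0241), and it was not called without culture replicate 3 or without D19 replicate 1. MT-TK, for lysine, had 7 to 32 counts per library, the lowest of all 37 genes in sum. Its change of -1.0 (adjusted p = 0.0293) was lost in 6 of 16 alternatives, among them without culture replicate 3, D19 replicate 2, D40 replicate 1 or both early D40 libraries. The groups of MT-TK overlapped.

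Of the other 16 tRNA genes none was called, with log2 fold changes from -0.76 (MT-TQ) to 0.49 (MT-TS2). MT-TH, MT-TS2 and MT-TL2, between MT-ND4 and MT-ND5, were at 0.38, 0.49 and 0.00 (edgeR adjusted p = 0.161, 0.103 and 0.991). With the sampling period as a block MT-TS2 was called (0.54, adjusted p = 0.0431). In all 3 culture replicate 2 was the lowest library, with 4.24 CPM against 8.57 to 11.9 CPM in the femur for MT-TH and 2.6 CPM against 5.68 to 8.62 CPM for MT-TS2. The tRNAs with more counts, MT-TC (475 to 875 per library), MT-TL1 and MT-TY, had changes of -0.13, -0.14 and -0.13 with SEs of 0.14, 0.16 and 0.17. Changes of this size could not be told from 0 with 3 libraries a group.

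By strand, 4 of 14 heavy-strand and 2 of 8 light-strand tRNA genes fell, shares near the 28.2% of all tested genes that fell, and the median change was -0.24 in both. The light-strand tRNA counts per heavy-strand tRNA count were 1.16, 1.89 and 1.06 in culture, 1.05, 1.13 and 1.10 at D19, and 1.11, 1.09 and 1.3 at D40. Culture replicate 2 was the highest and the groups overlapped. Per 10000 heavy-strand coding counts there were 17.5, 17.9 and 25.8 light-strand tRNA counts in culture, 12.1, 9.51 and 15.5 at D19, and 9.56, 11.8 and 11.5 at D40. All femur libraries were lower in this ratio, while the heavy-strand tRNA counts per 10000 (9.50 to 24.3 in culture, 8.43 to 14.2 in the femur) overlapped. No test was made on these sums.

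**Figure D4:**
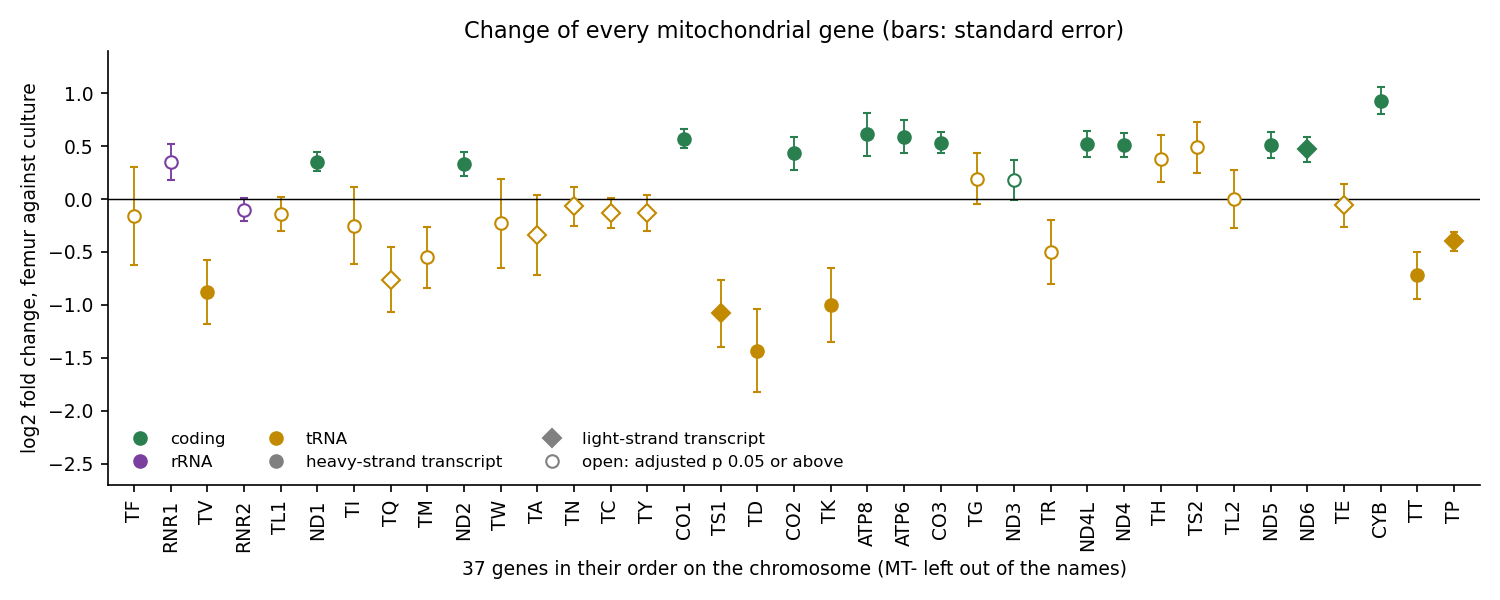
Log2 fold change of femur against culture (6 against 3 libraries, edgeR) for the 37 genes in chromosome order. Bars are standard errors, colours are RNA classes, circles and diamonds are genes of the heavy-strand and the light-strand transcript, and open symbols have an adjusted p of 0.05 or above. The coding genes lie between 0.18 and 0.93, and the 6 tRNA genes that fell lie between -1.43 and -0.40.

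Between the femur groups no mitochondrial gene was called, where edgeR called 3.23% of all genes higher and 1.45% lower at D40 than at D19. At an unadjusted p under 0.05 there were 2, MT-TL1 and MT-TD. MT-TL1, for leucine, was at 22.8, 22.5 and 33.2 CPM at D19 and 14.1, 17.7 and 21.2 CPM at D40, without overlap (log2 fold change -0.57, adjusted p = 0.124). DESeq2 called 1 gene lower, MT-TL1 (adjusted p = 0.045), as did edgeR with the sampling period as a block (-0.56, adjusted p = 0.00933), and limma voom called none. Without D40 replicates 1 and 2 MT-TL1 was at -0.30 (adjusted p = 0.878). Without a filter on low counts MT-RNR1 was called higher (0.26, adjusted p = 0.0312) and MT-TL1, MT-TV and MT-TD lower. The 13 coding genes differed by -0.20 to 0.11 on the log2 scale, with a median of 0.03. Without D40 replicates 1 and 2 there was also no call.

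Nuclear copies of mitochondrial genes can share reads with them. The annotation names 407 such copies, of which 92 had counts, and together they held 0.849% to 1.23% as many counts as the mitochondrial genes. Most were in MTATP6P1 on chromosome 1, with 13147, 12104 and 8066 counts in culture, 15689, 18453 and 15246 at D19, and 21057, 19949 and 18332 at D40. Next came MTND2P28, also on chromosome 1, with 2258 to 4404 counts. Library for library, culture replicate 3 was the lowest for both, as it was for most coding genes. Summed over all libraries, MTATP6P1 held 142043 counts beside 1265667 for MT-ATP6, and MTND2P28 held 31124 beside 817354 for MT-ND2. How reads that map to several places were treated is not given in the sources used here, so the counts of the source genes may miss some reads.

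The nuclear genes that copy, transcribe, cut, modify and translate the mitochondrial genome were read from the same test, from a list of 105 genes in 9 roles. Of the 103 tested, 22 (21.4%) rose and 35 (34.0%) fell for femur against culture, where 27.8% of all genes rose and 28.2% fell. Their median log2 fold change was -0.07. These shares are near those of all genes. The counts by role that follow are to be read beside the same shares of all genes, and no role was tested as a set. Without D40 replicates 1 and 2, 14 rose and 30 fell. By total library size alone, 27 rose and 23 fell. TK2 and PPARGC1A did not pass the filter on low counts.

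Of 6 transcription genes 1 rose and 3 fell. POLRMT, the mitochondrial RNA polymerase, was at 128, 146 and 142 CPM in culture and 131 to 149 CPM in the femur (log2 fold change 0.04, edgeR adjusted p = 0.593). TFAM, which packs mitochondrial DNA and recruits the polymerase, was at 160, 149 and 162 CPM in culture, 127, 119 and 112 CPM at D19, and 125, 122 and 131 CPM at D40. The TFAM groups did not overlap (-0.36, adjusted p = 0.000179). MTERF1, a termination factor, fell from 28.1 ± 1.24 CPM to 20.7 ± 0.889 at D19 and 20.7 ± 2.45 at D40 (SD, n = 3; -0.44, adjusted p = 0.000628). TFB2M, the initiation factor, fell by 0.23 on the log2 scale (adjusted p = 0.0104), but not with total library size as scaling (adjusted p = 0.0772). MTERF2 rose by 0.55 (adjusted p = 0.0142) and lost its call without culture replicate 3 and without the early D40 libraries. TEFM, the elongation factor, was at -0.06 (adjusted p = 0.607).

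Of 14 genes for RNA stability, polyadenylation and decay 3 rose and 4 fell. LRPPRC and SLIRP form a complex that protects mitochondrial messenger RNA. LRPPRC was at 343 to 363 CPM in culture and 326 to 372 CPM in the femur (log2 fold change -0.01, edgeR adjusted p = 0.893). SLIRP was at 45.7, 58.1 and 57.8 CPM in culture, 35.8, 38.6 and 32.8 CPM at D19, and 33.4, 33.7 and 29.2 CPM at D40 (-0.67, adjusted p = 4.55e-05). The groups did not overlap. GRSF1, an RNA-binding protein of the RNA granules, fell by 0.28 (adjusted p = 0.000576), while FASTK rose by 0.41 (adjusted p = 0.000205). MTPAP, the poly(A) polymerase, was 0.20 higher (adjusted p = 0.0294), a call lost in 5 of 12 alternatives, among them without culture replicate 1, culture replicate 2, D19 replicate 1, D40 replicate 3 or both early D40 libraries.

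Of 5 genes for cutting the transcripts and finishing tRNA ends 2 fell and none rose, where 27.8% of all genes rose and 28.2% fell. The 2 were subunits of the RNase P that cuts tRNAs out at their leading end. HSD17B10 was at 74.3, 86.6 and 79.0 CPM in culture and 52.8 to 61.3 CPM in the femur (log2 fold change -0.53, edgeR adjusted p = 2.16e-05). TRMT10C went from 45 ± 2.66 CPM to 35.5 ± 0.865 at D19 and 39.6 ± 0.939 at D40 (SD, n = 3; -0.26, adjusted p = 0.00251). Neither gene overlapped between culture and femur. Of 10 tRNA modification genes 5 rose and none fell, beside the same shares of all genes. PUS1, a pseudouridine synthase, was at 67.8, 67.3 and 68.2 CPM in culture, 106.3, 109 and 105.8 CPM at D19, and 84.1, 89.4 and 90.4 CPM at D40 (0.52, adjusted p = 3.63e-06). CDK5RAP1 rose by 0.32 (adjusted p = 0.00194).

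Of 21 tRNA charging genes 5 rose and 8 fell. Among aminoacyl-tRNA synthetases, EARS2 for glutamate fell from 54.7 ± 3.81 CPM to 41.2 ± 1.57 at D19 and 38.2 ± 0.38 at D40 (SD, n = 3; log2 fold change -0.46, edgeR adjusted p = 4.15e-05). VARS2 for valine rose by 0.35 (adjusted p = 0.000491). QRSL1, a subunit of the amidotransferase that makes glutaminyl-tRNA, rose by 0.72 (adjusted p = 0.000153). Of 14 genes for rRNA modification and ribosome assembly 2 rose and 5 fell, with GTPBP10 at -0.36 (adjusted p = 0.000318), TFB1M at -0.32 (adjusted p = 0.00161), MTG1 at 0.63 (adjusted p = 0.000538) and RPUSD4 at 0.24 (adjusted p = 0.00474). Of 13 translation factors 6 fell and none rose, where 28.2% of all genes fell and 27.8% rose. The elongation factor GFM1 was at -0.36 (adjusted p = 0.000312) and the recycling factor GFM2 at -0.34 (adjusted p = 0.00165).

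Of 13 tested genes for DNA replication and the nucleoid 3 rose and 6 fell. POLG, the catalytic subunit of the mitochondrial DNA polymerase, was at 119, 116 and 127 CPM in culture, 177, 175 and 179 CPM at D19, and 165, 156 and 155 CPM at D40 (log2 fold change 0.47, edgeR adjusted p = 1.17e-05). Its partner POLG2 rose by 0.72 (adjusted p = 7.08e-06). SSBP1, which coats single-stranded mitochondrial DNA, was at 163, 179 and 179 CPM in culture and 111 to 122 CPM in the femur (-0.60, adjusted p = 1.61e-06). RRM2B, a ribonucleotide reductase subunit that supplies nucleotides outside S phase, was at 159, 139.9 and 154 CPM in culture, 46.6, 41.6 and 46.6 CPM at D19, and 65.7, 55.9 and 67.5 CPM at D40 (-1.50, adjusted p = 6.76e-09). For these 4 genes no femur library overlapped with culture. The helicase TWNK was at -0.03 (adjusted p = 0.664). Of 7 tested regulators of mitochondrial biogenesis 3 rose and 1 fell. The transcription factor NRF1 rose by 0.27 (adjusted p = 0.00178) and the coactivator PPRC1 by 0.26 (adjusted p = 0.0262), while the nuclear receptor ESRRA fell by 0.19 (adjusted p = 0.022). PPRC1 lost its call without culture replicate 2, ESRRA without culture replicate 3 or D19 replicate 3 or with total library size as scaling (adjusted p = 0.208), and both without the early D40 libraries. Part of the exons of TEFM, MTERF2, SLIRP, MTPAP, MTG1, VARS2 and GFM2, from 11.6% to 45.5%, lies over exons of other genes, where reads may not have been counted.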

How the data were processed

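RNA-seq libraries were measured in 3 groups of 3, assigned from the sampling day in the sample titles. The authors deposited raw counts, whole numbers for each gene with no normalization. The submitters' processing notes name the build hg38 and the tools featureCounts 1.4.6, STAR 2.5.2a, DESeq2 1.40.1 and FastQC 0.11.5, without saying how each was set. Annotation, strand setting, library kit, and the treatment of mouse reads and of multiply mapped reads are not stated in the sources used.

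Symbols, positions and sequences came from GENCODE release 29, which named 57980 of 58243 identifiers. Here R 4.3.3 with edgeR 4.0.16 was used: filterByExpr (15163 genes kept), TMM scaling, the quasi-likelihood F-test on 9 libraries with 1 coefficient for each group, and Benjamini-Hochberg adjustment over all genes tested. A further fit took the summed counts of the 12 heavy-strand coding genes as library size. CPM are counts scaled to a TMM-adjusted library size of 1000000. The ratio of MT-ND6 was tested by exact permutation. Alternatives were other scalings, DESeq2 1.42.0, limma 3.58.1 with voom, no filter, fewer groups, a block for the sampling period and each library left out. Leaving out both early D40 libraries was added after seeing the data. Where a group is left with 1 library, that library is assumed to vary like the other groups. In simulated counts for femur against culture (15163 genes), 67, 67 and 66 genes were changed by a log2 size of 0.5, 1 and 2. The procedure recovered 53.7%, 71.6% and 98.5% of these changes, and 6.29% of its calls were unchanged genes. Far fewer genes were changed there than were called in the data, so these figures may not carry over. Depth limits the tRNA genes most. The members, the machinery list and the marker lists were chosen with earlier results of these data known. The text names all coding, rRNA and tested tRNA genes (tRNAs without a call in part as counts and ranges). In the machinery list it names, per role, up to 2 rises and 2 falls with the smallest p, plus POLRMT, TFAM, TFB2M, TEFM, MTERF1, LRPPRC, SLIRP, POLG and TWNK. A result for 1 gene that this rule names is not reported here.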

Additional observations from a re-analysis of the deposited data

Results flagged for a closer look

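In the nuclear machinery list, 1 gene was called higher and 2 lower of 103 by the direct test of D40 against D19, where 3.23% of all genes were higher and 1.45% lower. They were RRM2B, PUS1 and FASTKD1. PUS1 was lower at D40 than at D19, with a log2 fold change of -0.28 (edgeR adjusted p = 0.0125) and no overlap between the 3 libraries of each group. The PUS1 call was lost without D19 replicate 2, D19 replicate 3, D40 replicate 1 or both early D40 libraries (-0.24, adjusted p = 0.442). RRM2B was higher at D40 by 0.49 (edgeR adjusted p = 0.00596), also without overlap, and its D40 level lay between those of D19 and culture. The RRM2B call held in all 12 alternatives run. FASTKD1, in the list of RNA stability genes, lay outside the rule for named genes and was chosen after its values were seen. It was lower at D40, with a log2 fold change of -0.40 (edgeR adjusted p = 0.0262), at 39.5 ± 2.16 CPM at D19 and 29.9 ± 3.26 CPM at D40 (SD, n = 3), without overlap. The FASTKD1 call was lost without D19 replicate 1, 2 or 3, without D40 replicate 2 or without both early D40 libraries (-0.30, adjusted p = 0.495).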

How the results depend on the processing

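The rises of the coding genes kept their direction in all 16 alternatives for femur against culture, apart from MT-ND3, which ranged from -0.10 to 0.52. For D19 against culture, the 3 falls became 1 with total library size only, 1 with DESeq2, 1 with limma voom and 6 without a low-count filter, and 1 to 4 when single libraries were left out (1 without culture replicate 1 or 3 or D19 replicate 1 or 2). For D40 against culture, the 6 falls became 2 to 9 when single libraries were left out, with 2 without D40 replicate 1 and 3 without culture replicate 3 or D40 replicate 3. Leaving out both early D40 libraries gave 5 rises and 3 falls there, and 14 rises in the machinery list instead of 22. Between the femur groups, 1 rise and 3 falls were called without a low-count filter, 1 fall with DESeq2 and 1 with the replicate block. For femur against culture, the 6 falls became 3 (without culture replicate 3) to 10 (without culture replicate 2). The 21 falls relative to the heavy-strand coding genes became 11 (without culture replicate 3) to 21. With total library size only, the machinery list had 23 falls instead of 35, the median of all genes was 0.10 instead of 0.01, and that of the coding genes 0.60 instead of 0.51. MT-TL2, at 0.00, ranged from -0.36 (called, adjusted p = 0.0469, without culture replicate 2) to 0.26 (without culture replicate 1). The relative change of MT-TG, at -0.43, ranged from -0.75 (without culture replicate 2) to 0.22 (adjusted p = 0.371, without culture replicate 3). The cause was not tested.

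The title dates set same-numbered libraries in 1 sampling period, though the labels do not say what libraries of a period share. Deviations from the group means correlated by 0.04 to 0.16 in period 1, -0.07 to 0.25 in period 2 and 0.16 to 0.36 in period 3. With the replicate block 13 mitochondrial genes rose and 6 fell for femur against culture, 12 and 2 at D19, and 12 and 7 at D40. Against culture the block added calls for MT-ND2, MT-CO2 and MT-ATP8 at D19 and for MT-TL1 and MT-TS2 at D40, and ended that of MT-TS1 at D19 (adjusted p = 0.0522). Relative to the heavy-strand coding genes it ended those of MT-TW, MT-TG and MT-ND3. Low counts limit the tRNA genes: MT-TK had 116 counts over all libraries.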
